A study of Mus musculus with 16 samples.

Results

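The genes described here encode the main cytosolic calcium-binding proteins of neurons: the buffers calbindin (Calb1), calretinin (Calb2) and parvalbumin (Pvalb), the ubiquitous sensor calmodulin (Calm2 and Calm3), and the neuronal calcium sensors Ncs1, Vsnl1, Hpcal1 and Hpcal4. They were chosen by name, with earlier results of these data known. All 9 were found among the 25006 genes listed, with counts in every mouse. mRNA bound to tagged ribosomes was collected from dopaminergic neurons of the substantia nigra pars compacta (SNc) with the RiboTag method and sequenced, with 1 library per mouse for 8 control and 8 MCU-KO mice. Control mice were DAT-Cre+/- and were bred from DAT-Cre+/+ and C57/BL6 mice. MCU-KO mice were DAT-Cre+/- MCU fl/fl, so that Cre deletes the floxed gene of the mitochondrial calcium uniporter. Both groups carried 1 copy of Cre at the gene of the dopamine transporter. Both received a bilateral SNc injection of an AAV9 vector with a Cre-dependent Rpl22l1-Myc-DDK and tdTomato, and the labels give an age of postnatal day 45 and an interval of 30 days since injection. The tag was therefore confined to cells that express Cre and took up the vector, and the controls did not carry the floxed alleles, so that breeding and genotype cannot be told apart.

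Calcium that enters the cytosol of a neuron is largely captured by proteins with EF-hand motifs. Buffers such as calbindin, calretinin and parvalbumin limit the rise of free calcium, whereas sensors such as calmodulin and NCS-1 change shape on binding and act on enzymes and channels. Nigral dopaminergic neurons, which fire autonomously, are known for a low capacity to buffer calcium. Calbindin is more abundant in dopaminergic neurons of the ventral tegmental area and the dorsal tier than in those of the ventral SNc, and parvalbumin is best known from fast-spiking GABAergic neurons.

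Calm2 and Calm3 are shown first, because both encode calmodulin and their reads can be assigned to a gene only where the sequences differ. Each has a coding sequence of 450 bases (149 codons and the stop). The coding sequences were identical at 82.7% of positions and had the same translation. Coding bases 61 to 150, which open with the first calcium-binding loop and lie within 1 exon in each gene, are printed from GRCm38 with GENCODE M21 gene models, 5′ to 3′ on the coding strand. They lie at chr17:87435819-87435908 (minus strand) for Calm2 and chr7:16917613-16917702 (minus strand) for Calm3. Capitals mark the 15 of 90 positions at which the genes differ.
Calm2: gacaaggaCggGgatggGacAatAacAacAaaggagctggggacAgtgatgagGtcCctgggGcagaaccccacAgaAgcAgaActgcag
Calm3: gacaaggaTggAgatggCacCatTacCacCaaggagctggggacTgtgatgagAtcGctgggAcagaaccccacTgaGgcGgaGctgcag
Differences recur every few bases, and over the whole transcripts no stretch of 50 bases was common to Calm2 and Calm3. Stretches shared with other genes made up 9.72% of Calm2, 2.52% of Calm3 and 6.50% of Hpcal1, and the other 6 members had none. Reads that fall wholly within such stretches cannot be assigned to 1 gene, and the effect on the counts of those 3 genes was not tested. The sensor genes, by contrast, encode different proteins: coding identity was 82.1% between Vsnl1 and Hpcal4, 71.6% between Vsnl1 and Hpcal1, 71.3% between Hpcal1 and Hpcal4, and 63.2% to 64.4% between Ncs1 and the others. Calb1 and Calb2 were identical at 62.7% of aligned coding positions.

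Libraries held 18999107 to 22016362 counts in control mice and 14129527 to 20582204 in MCU-KO mice, with MCU-KO mouse 8 the lowest. The targeted gene Mcu was counted at 454 ± 274 normalized counts in control (SD, n = 8, 120 to 828) and at 200 ± 139 in MCU-KO (SD, n = 8, 5.82 to 410). The genotypes thus overlapped (edgeR log2 fold change -1.19, unadjusted p = 0.0569, Benjamini-Hochberg adjusted p = 1.00). The study verified the deletion by quantitative RT-PCR of Mcu on RiboTag mRNA and by measurements of mitochondrial calcium. All 11 dopaminergic markers had counts in every mouse and summed to 13098 to 16175 CPM (counts scaled to the library size) in control and 11419 to 18203 CPM in MCU-KO. Oligodendrocyte markers, the most abundant of the other cell types, summed to 2788 to 5548 and 3326 to 6589 CPM. Markers of cells other than dopaminergic neurons were thus counted in every library, and the part of such cells in the levels below was not tested. In such bulk samples, fewer cells of a type and less RNA per cell cannot be told apart.

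Calm2 had the highest level of the 9 genes in control neurons, and Pvalb had the lowest mean. Levels between genes are given as normalized counts (counts divided by DESeq2's size factors) per 1000 bases of exon, here counts per kb. Calm2 stood at 24887 counts per kb, above 99.9% of the 12390 genes tested, and Calm3 at 9072 counts per kb. Calb2 followed with 6251 and Vsnl1, which encodes visinin-like protein, with 5376 counts per kb. Hpcal1 and Hpcal4, which encode relatives of hippocalcin, had 2526 and 1908 counts per kb. Calb1 (1313), Ncs1 (1125) and Pvalb (935 counts per kb) were the lowest of the 9, although Pvalb still exceeded 89.1% of the genes tested.

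**Figure D1:**
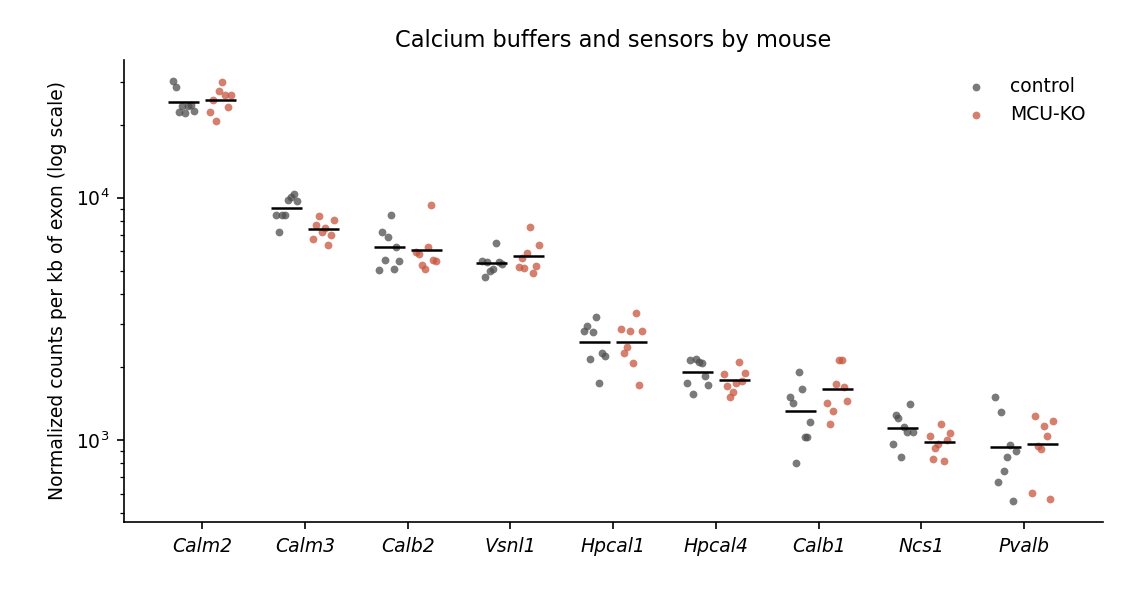
Normalized counts per kb of exon (log scale) of the 9 genes in 8 control (grey) and 8 MCU-KO (red) mice, in the order of the control means, with 1 point per mouse and the mean as a bar. Calm2 lies highest at a control mean of 24887 counts per kb and Pvalb lowest at 935, and the points of the genotypes overlap for every gene.

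The order of levels was tested between neighbours within the control mice, on the log2 scale with a pseudocount of 1 (exact sign-flip permutation test over 256 patterns, two-sided, Benjamini-Hochberg adjusted over 8 pairs). The order came from the means of these same mice, so that the pairs and their direction were picked from the values tested. The p-values therefore describe the spread within pairs and are no independent support for the order. Of the 8 neighbouring pairs, 5 had an adjusted p under 0.05. Calm2 exceeded Calm3 by 1.46 ± 0.30 (SD) in 8 of 8 mice (2.74-fold, exact permutation adjusted p = 0.0208). Vsnl1 exceeded Hpcal1 by 1.11 and Hpcal4 exceeded Calb1 by 0.58, each in 8 of 8 mice (exact permutation adjusted p = 0.0208). Calm3 exceeded Calb2 by 0.55 and Hpcal1 exceeded Hpcal4 by 0.39, each in 7 of 8 mice (exact permutation adjusted p = 0.025). Both of these pairs were lost without control mouse 3, 4, 5, 7 or 8, which left 3 pairs, and without mouse 6 Calm3 over Calb2 was lost, and without mouse 2 Hpcal1 over Hpcal4. Fewer mice raise the smallest p of this test, and pairs that hold in 7 of 8 mice can be lost by that alone. These losses therefore do not single out the mice named. Calb2 and Vsnl1 (0.20, in 6 of 8 mice), Calb1 and Ncs1 (0.19, in 5 of 8) and Ncs1 and Pvalb (0.32, in 6 of 8) did not differ beyond their spread. Since exon length was that of all annotated exons of a gene, a gene with long alternative exons is set too low on this scale. With the longest transcript in place of all exons, the undecided pair near the top was Calm3 and Calb2 instead of Calb2 and Vsnl1.

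The means of MCU-KO mice fell in the same order. There, 4 of the 8 pairs passed: Calm2 over Calm3 (1.77), Vsnl1 over Hpcal1 (1.19) and Calb1 over Ncs1 (0.71), each in 8 of 8 mice (exact permutation adjusted p = 0.0208), and Hpcal1 over Hpcal4 (0.50, 7 of 8, exact permutation adjusted p = 0.0313). Hpcal1 over Hpcal4 was lost without MCU-KO mouse 1, 2, 3, 4, 5, 6 or 8. Here too the smallest p rises with fewer mice, so that this loss does not single out the mice named. Calb1 over Ncs1 passed in MCU-KO and not in control, and the difference between the genotypes in this pair was not tested. Hpcal4 exceeded Calb1 by 0.14 in MCU-KO, in 5 of 8 mice, which did not pass (exact permutation adjusted p = 0.271).

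Summed by role, the 3 buffers reached 8499 ± 1331 counts per kb in control and 8684 ± 1656 in MCU-KO (SD, n = 8 each). Calm2 and Calm3 together reached 33959 ± 2487 and 32789 ± 2947 counts per kb, and the 4 sensors 10934 ± 446 and 11017 ± 989. Buffer mRNA therefore amounted to 25.2% ± 4.59 of the sum of Calm2 and Calm3 in control (20.7% to 34.1%) and to 26.5% ± 4.83 in MCU-KO (22.2% to 37.9%). These ranges overlapped from 22.2% to 34.1%. Calb2 made up 73.3% of the buffer sum in control and 70.1% in MCU-KO. Calb1 contributed 15.3% and 18.7%, and Pvalb 11.4% and 11.2%. Among the sensors, Vsnl1 alone accounted for 49.2% and 52.0%.

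Between genotypes, none of the 9 genes passed the threshold. After Benjamini-Hochberg adjustment, the quasi-likelihood test of edgeR called 22 of 12390 genes at an adjusted p under 0.05, which is 0.178%, and 0 of the 9. At an unadjusted p under 0.05, 1 of the 9 stood out (Calm3, lower in MCU-KO), against 4.41% of all genes and 2.16% that were lower. DESeq2 called 1 of the 9 (also Calm3), against 0.557% of its 16171 genes. In no member did the 8 control and 8 MCU-KO values separate, which they did in 0.258% of all genes. Fold changes were above 0 for 5 members, against 50.4% of all genes, and below 0 for 4, with a median log2 of 0.01 beside 0.00 over all genes tested.

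Each of the 9 genes had a lower biological coefficient of variation between mice than the median gene tested, Pvalb the highest of them at 32.8%. This coefficient, estimated by edgeR, had a median of 16.8% over the members and 47.8% over all genes. The 95% interval of the log2 fold change lay within 1 in either direction for 9 of 9 members, against 51.8% of all genes, and within 0.5 for 7 of 9, against 20.1%. Calb1 and Pvalb were the exceptions to the narrower bound. All 9 genes were abundant, each above at least 89.1% of the genes tested per kb in control. Genes of similar level were not compared separately, so that neither the coefficients nor the intervals can be read as particular to the 9.

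**Figure D2:**
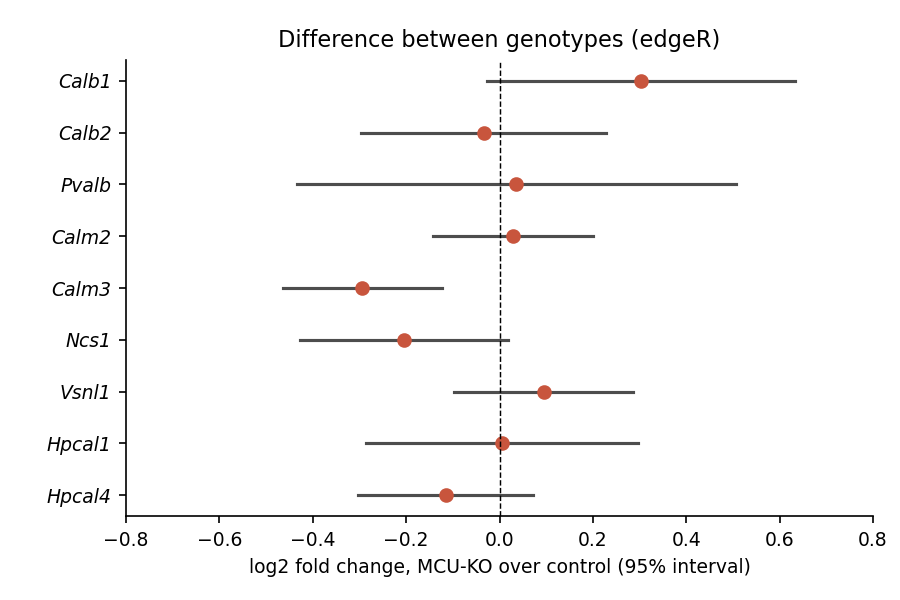
The log2 fold change of MCU-KO over control for each of the 9 genes (point) with its 95% interval from edgeR (line). The interval of Calm3, from -0.46 to -0.12, leaves out 0, and those of the other 8 genes cover it.

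Calb1 (chr4:15881264-15908064, plus strand) was the buffer with the largest fold change, and the spread between mice was wide. Control values ran from 3911 in mouse 3 over a median of 6317 to 9287 normalized counts in mouse 4, with a mean of 6364 ± 1782 (SD, n = 8). MCU-KO values ran from 5616 over a median of 7504 to 10330, with a mean of 7846 ± 1746 (SD, n = 8). The top 2 MCU-KO mice (5 and 6) lay above every control, the bottom 3 controls (3, 6 and 7) lay below every MCU-KO mouse, and the rest overlapped. The log2 fold change was 0.30 ± 0.16 (SE, 95% interval -0.03 to 0.63) and was not significant (edgeR adjusted p = 1.00, DESeq2 adjusted p = 0.908). Among 8 markers of tegmental and dorsal-tier dopaminergic neurons, where calbindin is typically found, 1 passed the threshold: Tacr3, the neurokinin B receptor, rose from 1204 ± 317 to 2578 ± 895 normalized counts (log2 fold change 1.10 ± 0.21, edgeR adjusted p = 0.0177). Fold changes were above 0 for 6 of the 8 markers and below 0 for 2, and only 1 had an unadjusted p under 0.05 in edgeR. These 8 markers, Tacr3 included, summed to 570 to 831 CPM in control and 673 to 1160 CPM in MCU-KO. Vip was at 0 in 4 or more controls, and the part of the 8 markers in the Calb1 values was not tested.

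Calb2 (chr8:110137502-110168210, minus strand), the most abundant buffer, was at similar levels in both genotypes. It ranged from 8756 over a median of 10249 to 14854 normalized counts in control, and from 8874 over 9924 to 16220 in MCU-KO. Control mouse 5 and MCU-KO mouse 6 were the highest, and the ranges overlapped. For Calb2 the log2 fold change was -0.03 (95% interval -0.30 to 0.23).

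Pvalb (chr15:78191114-78206400, minus strand) varied most of all 9 genes, with a coefficient of variation of 34.2% in control and 26.7% in MCU-KO. It ranged from 583 over 911 to 1567 normalized counts in control and from 595 over 1035 to 1307 in MCU-KO, so that the MCU-KO range lay within that of control. Its log2 fold change was 0.04 ± 0.23 (SE), and the interval from -0.43 to 0.51 was the widest of the 9. GABAergic neurons, the usual source of parvalbumin, were represented by 6 markers that summed to 233 to 491 CPM in control and 236 to 433 CPM in MCU-KO. Among them, Gad1 and Gad2, which make GABA, stood at 139 and 284 counts per kb in control and Slc32a1, the vesicular GABA transporter, at 85.1. None of the 6 passed an unadjusted p under 0.05 in edgeR or an adjusted p under 0.05 in DESeq2, and the part of these cells in the Pvalb level was not tested.

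Calm3 (chr7:16915379-16924114, minus strand) was lower in MCU-KO mice by 18.4%, but the call depended on the test. Control mice had 17522 normalized counts in mouse 2, a median of 22020 and 25064 in mouse 7, with a mean of 21982 ± 2594 (SD, n = 8). MCU-KO mice had 15511 in mouse 6, a median of 17842 and 20381 in mouse 3, with a mean of 17939 ± 1654 (SD, n = 8). All 8 MCU-KO mice lay below the control median, and 7 of 8 controls lay above every MCU-KO mouse, with control mouse 2 as the exception. This was a log2 fold change of -0.29 ± 0.08 (SE, 95% interval -0.46 to -0.12). For it, edgeR's adjusted p was 0.409 (unadjusted p = 0.00174), DESeq2's was 0.0388, and limma's was 0.278. Over all alternatives, including the omission of each mouse, the log2 fold change stayed between -0.33 and -0.26, and the adjusted p ranged from 0.0388 to 0.944.

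Calm2 (chr17:87433412-87446935, minus strand) did not follow. Values ran from 32990 over 35236 to 44508 normalized counts in control and from 30307 over 37944 to 44228 in MCU-KO, and apart from MCU-KO mouse 3, below every control, and control mouse 1, just above every MCU-KO mouse, they overlapped. For Calm2 the log2 fold change was 0.03 (95% interval -0.14 to 0.20).

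Because both genes encode the same protein, their relative contribution was computed in each mouse, per kb. It rests on the same counts as the comparisons above, so that a difference in it is not independent of the lower Calm3. The share of Calm2 in the sum of Calm2 and Calm3 ran from 69.7% over a median of 71.5% to 79.9% in control and from 71.1% over 77.1% to 80.6% in MCU-KO. Control mice 1, 2, 3 and 4 lay within the MCU-KO range, the other 4 controls lay below every MCU-KO mouse, and MCU-KO mouse 3 lay near the control median. Means were 73.1% ± 3.96 and 77.3% ± 2.99, a difference of 4.15 percentage points (exact permutation test over 12870 splits, two-sided, p = 0.0382). This did not hold throughout, and the exact permutation p was 0.0525 to 0.0673 without control mouse 3, 5, 6, 7 or 8 or MCU-KO mouse 4, 5 or 6. By counts, without division by length, the mean shares were 62.3% and 67.3%.

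**Figure D3:**
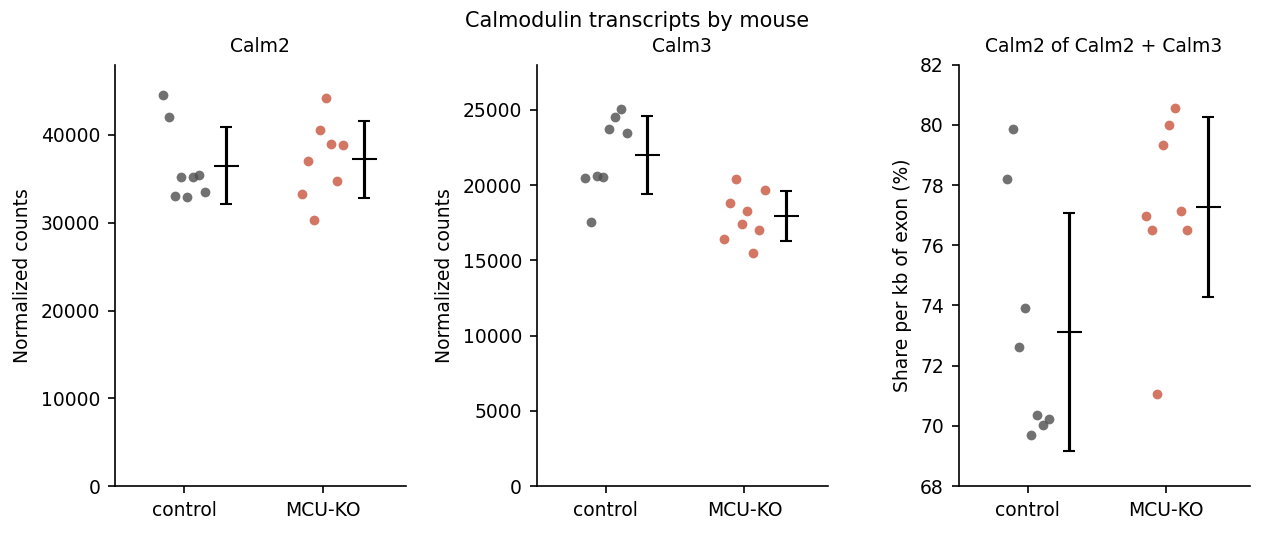
Normalized counts of Calm2 (left) and Calm3 (middle), and the share of Calm2 in the sum of both per kb of exon in percent (right, axis from 68 to 82), with 1 point per mouse and the mean ± SD beside it for 8 control and 8 MCU-KO mice. Calm3 lies below the control median of 22020 in all 8 MCU-KO mice, while the Calm2 counts of the genotypes overlap.

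Of the neuronal calcium sensors, none differed beyond the spread between mice. Ncs1 (chr2:31245823-31295989, plus strand) encodes neuronal calcium sensor 1, which binds the D2 dopamine receptor. Control values ran from 3968 over 5155 to 6524 normalized counts, and MCU-KO values from 3808 over 4571 to 5425. MCU-KO mice lay below the control median in 7 of 8 cases, with MCU-KO mouse 5 above it, and the log2 fold change of -0.21 ± 0.11 (SE, 95% interval -0.43 to 0.02) was not significant (edgeR adjusted p = 1.00).

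Vsnl1 (chr12:11325242-11436613, minus strand) had the steadiest level in control, with a coefficient of variation of 10.04%. It ran from 9177 over 10518 to 12764 normalized counts in control and from 9558 over 10623 to 14822 in MCU-KO. The genotypes overlapped except for MCU-KO mouse 5, above every control, and control mouse 2, below every MCU-KO mouse, and the log2 fold change was 0.09 (95% interval -0.10 to 0.29). Hpcal1 (chr12:17690856-17791933, plus strand) ran from 2927 over 4315 to 5479 in control and from 2855 over 4423 to 5686 in MCU-KO. Its ranges nearly coincided, and the log2 fold change was 0.01 (95% interval -0.29 to 0.30). Hpcal4 (chr4:123183227-123194701, plus strand) ran from 8228 over 10441 to 11541 in control and from 8011 over 9263 to 11228 in MCU-KO. Here 7 of 8 MCU-KO mice lay below the control median, with a log2 fold change of -0.12 (95% interval -0.30 to 0.07).

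Single mice deviated in several of these genes at once. MCU-KO mouse 6 had the highest value of its genotype for Calb2 (16220), Hpcal1 (5686) and Hpcal4 (11228 normalized counts), nearly the highest for Calb1 (10327), and the lowest for Calm3 (15511), Ncs1 (3808) and Vsnl1 (9558). The same library had the lowest sum of dopaminergic markers of all 16 (11419 CPM) and of ventral nigral markers (1845 CPM), the highest sum of tegmental and dorsal-tier markers (1160 CPM), and high sums of astrocyte (532 CPM), oligodendrocyte (5654 CPM) and GABAergic markers (433 CPM). Their part in its values was not tested. Without this mouse, the log2 fold change was 0.24 for Calb1, -0.14 for Calb2, -0.26 for Calm3, -0.17 for Ncs1, 0.13 for Vsnl1, -0.06 for Hpcal1 and -0.15 for Hpcal4, and again no member passed in edgeR. Control mouse 3, with the lowest Calb1, had the lowest sum of tegmental and dorsal-tier markers of all 16 mice (570 CPM) and the lowest sums of dopaminergic (13098 CPM) and ventral nigral markers (1978 CPM) among controls. Its sums of GABAergic (491 CPM), oligodendrocyte (5548 CPM), astrocyte (421 CPM) and oligodendrocyte precursor markers (198 CPM) were the highest among controls, and their part in its Calb1 level was not tested. Without it the log2 fold change of Calb1 was 0.23.

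**Figure D4:**
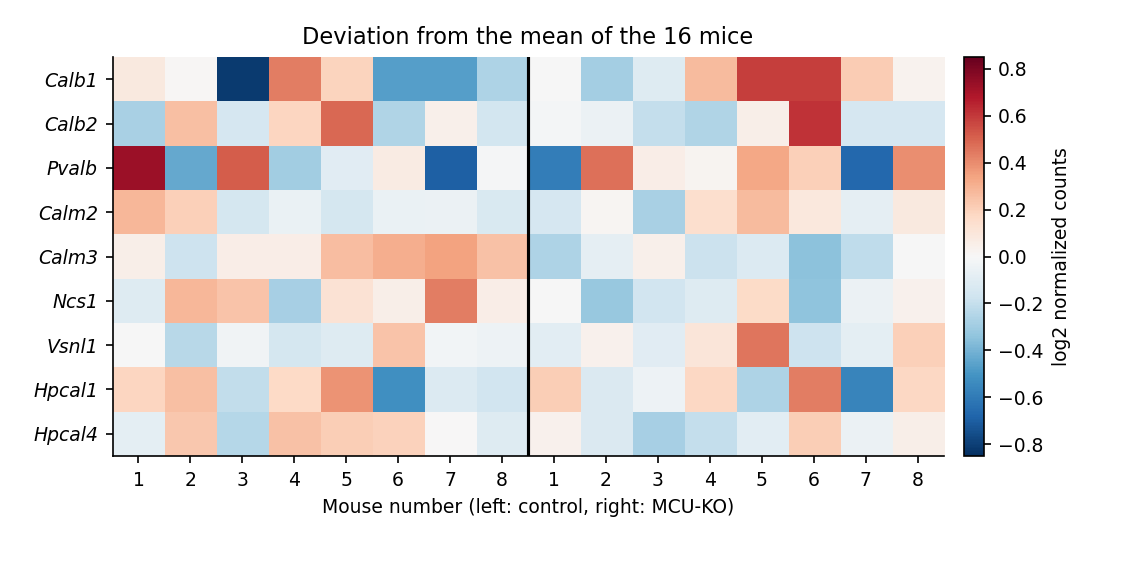
Deviation of each gene in each mouse from its mean over all 16 mice, in log2 normalized counts (red higher, blue lower), with control mice left and MCU-KO mice right of the line. Calm3 is lower in most MCU-KO columns, Calb1 is lowest in control mouse 3 at -0.81, and MCU-KO mouse 6 is high in Calb2 at 0.62 and low in Calm3.

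The genes whose levels followed each member most closely were found by Pearson's r over the 16 mice after the mean of each genotype was removed, among 7371 well-counted genes. All values come from the same 16 libraries and the genes named are the extremes of that number, so that r is given as a description. Calb1 ran closest to Hprt (0.80) and Nhsl2 (0.79), Calb2 to Rprm (0.80) and Crip2 (0.79), and Pvalb to Nrxn3 (0.82) and Elmod1 (0.82). Calm2 ran close to Ddx3x (0.87), and Calm3 to Sncb (0.82) and Elob (0.82). For the sensors, these were Ncoa7 (0.81) and Osbpl2 (0.77) for Ncs1, Cycs (0.84) and Chmp4b (0.81) for Vsnl1, Cd63 (0.84) and Sulf2 (0.84) for Hpcal1, and Fxyd6 (0.82) and Cck (0.78) for Hpcal4. No member was among the 2 closest genes of another. Between members, r was 0.68 for Calb2 and Hpcal4, 0.58 for Calb2 and Hpcal1 and 0.54 for Calb1 and Calb2, and it was -0.42 for Calm2 and Calm3 and -0.48 for Vsnl1 and Hpcal1.

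The wider set of EF-hand buffers and sensors held 36 other genes, of which 25 were tested, and 0 passed in edgeR or DESeq2. Without adjustment, 2 had a p under 0.05 in edgeR, beside 4.41% of all genes: Ncald, which encodes neurocalcin delta, at 3815 ± 472 and 4525 ± 561 normalized counts (log2 fold change 0.25 ± 0.10), and Pef1, a penta-EF-hand protein, at 3304 ± 686 and 2612 ± 580 (-0.34 ± 0.15). Fold changes were above 0 for 12 genes and below 0 for 13, with a median log2 of -0.0026. The most abundant of them per kb in control were S100a10 (3017), S100a1 (1919), S100b (1863) and Pef1 (1725 counts per kb). Most, but not all, S100 proteins are small calcium sensors, and S100b is also a marker of astrocytes. S100a10 stands in the list as a member of this family. Not tested for low counts were Cabp2, Cabp4, Cabp5, Rcvrn, Scgn, Ocm, S100g, Calml3, Calml4, Chp2 and Caps2.

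Targets and binding proteins of calmodulin, together with regulators of such targets, numbered 42, of which 41 were tested, and again 0 passed in edgeR or DESeq2. An unadjusted p under 0.05 in edgeR was found for 3, beside 4.41% of all genes. Ppp3cb, a catalytic subunit of the phosphatase calcineurin, stood at 2271 ± 483 and 3299 ± 699 normalized counts (SD, n = 8 each; log2 fold change 0.54 ± 0.15, edgeR adjusted p = 0.366, DESeq2 adjusted p = 0.0862). Camk2n1, an inhibitor of CaMKII, stood at 4818 ± 650 and 6057 ± 1477 (0.33 ± 0.13). Camk1, a calmodulin-dependent kinase and named here after its value was seen, had a log2 fold change of -0.30. In all, 26 of the 41 lay above 0, beside 50.4% of all genes, and 15 below, with a median log2 of 0.09 beside 0.00 over all genes. The most abundant of the 41 per kb in control were Gap43, which encodes a growth-cone protein that binds calmodulin, at 29732 counts per kb, Basp1, another growth-cone protein, at 8434, the calmodulin-binding Pcp4 at 6047 and the calcineurin regulator Rcan2 at 1767. Their log2 fold changes were -0.01, 0.10, 0.08 and 0.17.

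**Figure D5:**
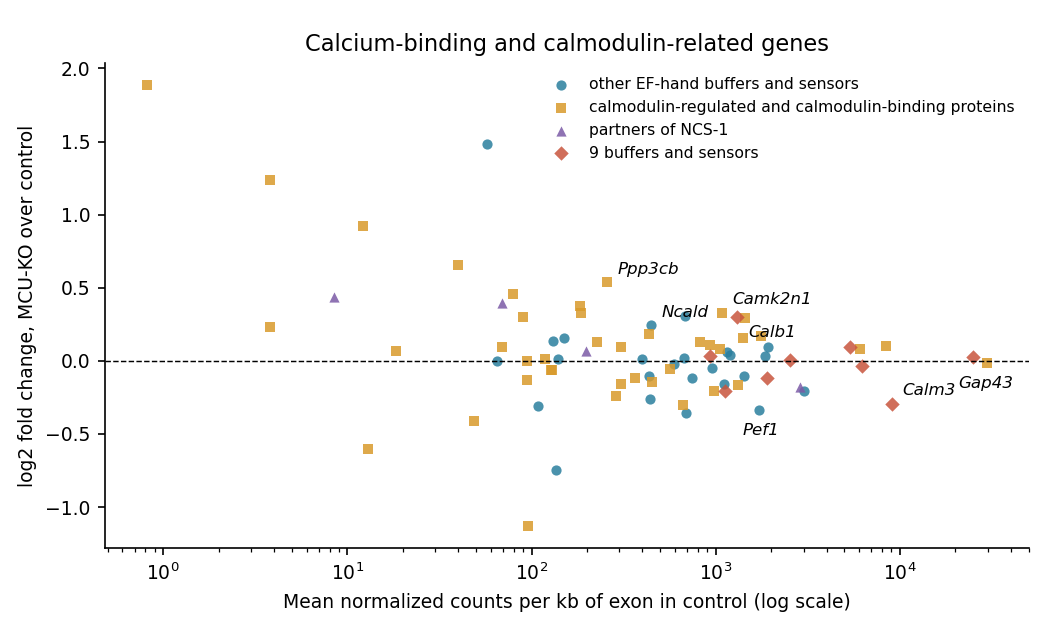
The log2 fold change of MCU-KO over control against the mean normalized counts per kb of exon in control (log scale) for the 9 genes and the tested genes of 3 related lists, with 1 point per gene. Abundant genes lie close to 0, and the far points, such as those above 1, belong to less abundant genes that did not pass the threshold.

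Partners of NCS-1 were 4 genes, of which none passed in edgeR or DESeq2 or had an unadjusted p under 0.05. Drd2, the dopamine D2 autoreceptor, stood at 7348 ± 1058 and 6497 ± 1218 normalized counts (SD, n = 8 each), with a log2 fold change of -0.18 (95% interval -0.42 to 0.06) beside -0.21 for Ncs1. Ric8a, an exchange factor for G proteins, stood at 1405 ± 574 and 1468 ± 340. Pi4kb, the lipid kinase that NCS-1 activates, had 269 ± 280 and 353 ± 338, and Il1rapl1, a synaptic receptor, 78.9 ± 59.2 and 106 ± 84.8, so that the spread of both was too wide to compare the genotypes.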

How the data were processed

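RNA-seq counts of 8 control and 8 MCU-KO mice were analysed. According to the sample labels and the study's methods, the authors trimmed polyA-selected reads (cutadapt, through Trim Galore), aligned them to mm10 with STAR, counted them per Ensembl gene with htseq-count and deposited whole-number counts per gene, not normalized. Versions, strandedness and Ensembl release are not given in the sources used here. The study states 8 and 9 mice, and 8 and 8 libraries were analysed here. Reads carry no molecular identifiers, so that precision from depth covers counting error only. 3 counts correspond to 0.136 to 0.212 CPM.

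Identifiers were matched to GENCODE M21 (GRCm38, the build mm10 names), which gave 24942 symbols. Genotypes were compared with edgeR 4.0.16 in R 4.3.3 (filterByExpr, TMM, glmQLFit, glmQLFTest, genotype only) and Benjamini-Hochberg adjustment over 12390 genes, threshold 0.05, and p-values rest on the spread between mice. For normalized counts, each library was scaled by its size factor from DESeq2 1.42.0, and lengths are the union of a gene's exons. Gene-specific sequence was judged by stretches of 50 bases. Most-alike genes were sought among genes with a mean log2 CPM of at least 4. Alternatives were DESeq2, limma 3.58.1, other normalizations and filters, a block for the mouse number and the omission of each mouse. A share of Calm2 with whole-gene counts divided by the number of stretches not shared with other genes was added after the data were seen. Reads were not recounted over those stretches. Scripts were tested on simulated data and run with Python 3.11.15, numpy 2.4.6, pandas 2.3.3 and matplotlib 3.10.9.

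The members and the gene lists were chosen with earlier results of these data known. The text names the 9 members, Mcu and, from each of the 3 lists of related genes, the 4 genes highest per kb in control, the 2 with the smallest p and any past the threshold. Camk1, Tacr3 (from a marker list, which the rule does not cover) and the GABAergic markers given with values were named outside this rule after their values were seen. Some genes of these lists and rankings, and a version of the Calm2 share that needs one of them, are not reported here.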

Additional observations from a re-analysis of the deposited data

Results flagged for a closer look

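In a group of 8 mice, a value was singled out when the gap between the highest or lowest mouse and its nearest neighbour was a larger part of the group's range than Dixon's 95% critical value allows. Of 20 groups examined (the 9 genes and the Calm2 share in each genotype), 3 had such a mouse, and chance gives 1. Calb2 was at 16220 normalized counts in MCU-KO mouse 6, the library with the lowest dopaminergic marker sum. Vsnl1 was at 12764 normalized counts in control mouse 6, far above the other controls. The share of Calm2 in the sum of Calm2 and Calm3 was 71.1% in MCU-KO mouse 3, below the other MCU-KO mice.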

How the results depend on the processing

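In edgeR, under each normalization and filter tried and without each mouse in turn, 0 of the 9 members passed. In limma, run once with all mice, 0 passed, and DESeq2 called 1 (Calm3). Over all genes, DESeq2 called 90 (53 higher) in place of 22, and 18 to 24 passed without single mice. The Calm2 share differed by 3.66 to 5.11 points without single mice. With the same counts divided by the number of unshared stretches in place of exon length, it differed by 4.02 (exact permutation p = 0.0379). That changes the divisor only, and the effect of reads in shared stretches was not tested. In the order of control levels, 3 to 6 pairs passed without single mice, where fewer mice also raise the smallest p. The log2 fold change of Hpcal1 took the other sign in 9 of 23 alternatives, that of Pvalb in 5, Calb2 in 3 and Calm2 in 1. None of these was called, and the other 5 members kept their sign. What sets the difference between edgeR and DESeq2 was not tested.

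Mouse numbers recur in both genotypes, and no pairing by number was seen: r between the deviations of same-numbered mice was -0.10 to 0.10, and 1 of 8 correlated best with its own number. The labels do not say whether equal numbers mean paired mice. With the number as a replicate block, 14 genes and 0 members passed (Calm3 adjusted p = 0.944 in edgeR), and the Calm2 share difference of 4.15 points had an exact sign-flip permutation p of 0.0703.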
